A study of Mus musculus with 6 samples.

Results

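The neutrophil-attracting CXC chemokine genes form a cluster on mouse chromosome 5, and 6 of them were examined here in synovial fibroblasts (SFs), the connective tissue cells of the joint lining: Cxcl1, Cxcl2, Cxcl3, Cxcl5, Ppbp and Pf4. They were chosen by name, as chemokine genes of a single locus, by a rule that uses no measured value. Earlier results of these data were known when the choice was made. All 6 names were found, each in a single row, among the 49548 genes of the deposited table. The SFs came from ankle joints of 8-week-old hTNFtg mice on a CBA C57BL/6J background, so control and treated cells alike carried the human TNF transgene that gives these mice arthritis. CD45+ leukocytes had been depleted at passage 1. Each group held 3 libraries, described by the study as biological replicates: untreated hTNFtg SFs, and hTNFtg SFs given 500 μM amisulpride, for 48 h. Amisulpride is an antipsychotic drug, an antagonist of dopamine receptors and of a serotonin receptor. The labels give the controls as having had no treatment, whereas the study's methods name a vehicle, and they are called untreated throughout. RNA was read by 3′ mRNA sequencing (QuantSeq), which samples the end of each transcript. Values are normalised counts, taken here to be read counts scaled by a single factor for each library and then rounded.

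Cxcl1, Cxcl2, Cxcl3, Cxcl5 and the processed product of Ppbp carry the ELR motif (glutamate, leucine, arginine) ahead of their first cysteines, and they draw neutrophils by binding the receptor CXCR2. In fibroblasts, TNF, IL-1 and IL-17 induce the genes Cxcl1, Cxcl2, Cxcl3 and Cxcl5 through NF-kB, and their mRNAs are short-lived. Pf4, platelet factor 4, lacks the ELR motif, binds heparin strongly and is best known from platelet granules. Ppbp, pro-platelet basic protein, is likewise an abundant product of platelets and megakaryocytes.

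All 6 genes lie on the plus strand within 146579 bases of chromosome 5 (mm10), in the order Cxcl5, Ppbp, Pf4, Cxcl3, Cxcl1 and Cxcl2. The first 4 sit 2371 to 12719 bases from each other, Cxcl1 follows 101640 bases after Cxcl3, and Cxcl2 lies 10755 bases after Cxcl1. Promoter sequences are shown because some genes of this cluster share a stretch of letters near the start site. Its part in their values after treatment was not tested. RefSeq (GRCm38.p6) promoters of 300 bases, reaching from 250 before the start site, were matched for 5 of the 6 members, with Cxcl5 the unmatched name. Capitals mark every match on either strand to GGGNNTTTCC or to TATAAA. GGGAATTTCC, the form of the former that Cxcl1, Cxcl2 and Cxcl3 share, was picked after the sequences had been read.
Cxcl3, chr5:90785851-90786150: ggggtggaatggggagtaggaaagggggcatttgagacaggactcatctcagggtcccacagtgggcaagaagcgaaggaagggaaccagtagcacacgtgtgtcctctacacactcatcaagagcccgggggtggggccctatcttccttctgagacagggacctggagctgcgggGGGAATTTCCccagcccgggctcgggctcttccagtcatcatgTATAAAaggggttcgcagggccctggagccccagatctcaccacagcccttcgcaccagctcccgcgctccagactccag
Cxcl2, chr5:90903649-90903948: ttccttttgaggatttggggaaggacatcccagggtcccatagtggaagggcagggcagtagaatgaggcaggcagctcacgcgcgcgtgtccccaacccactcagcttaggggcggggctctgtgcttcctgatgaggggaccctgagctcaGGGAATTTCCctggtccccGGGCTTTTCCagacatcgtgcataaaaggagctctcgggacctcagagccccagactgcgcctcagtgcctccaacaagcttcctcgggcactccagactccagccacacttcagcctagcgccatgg
Cxcl1, chr5:90890995-90891294: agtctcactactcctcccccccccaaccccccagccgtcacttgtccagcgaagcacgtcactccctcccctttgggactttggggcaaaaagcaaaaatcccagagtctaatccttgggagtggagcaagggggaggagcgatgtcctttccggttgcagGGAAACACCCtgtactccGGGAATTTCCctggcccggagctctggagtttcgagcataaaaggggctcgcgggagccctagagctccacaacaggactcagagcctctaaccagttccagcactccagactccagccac
Pf4, chr5:90772185-90772484: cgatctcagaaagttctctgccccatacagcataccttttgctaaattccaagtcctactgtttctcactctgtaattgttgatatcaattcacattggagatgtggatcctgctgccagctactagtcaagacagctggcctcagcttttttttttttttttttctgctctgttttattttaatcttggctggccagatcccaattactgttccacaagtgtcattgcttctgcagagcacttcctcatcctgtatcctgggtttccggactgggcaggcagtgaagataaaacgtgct

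The shared form GGGAATTTCC, which has the letters of an NF-kB binding motif, stood 73 bases before the start site in Cxcl3, 97 in Cxcl2 and 71 in Cxcl1. Of 32851 mouse promoters of this length, 29 (0.0883%) held it on either strand. The looser GGGNNTTTCC, found in 1.63% of promoters, had a second place in Cxcl2 at 78 bases and in Cxcl1 at 89 bases, the latter on the minus strand and therefore written above as GGAAACACCC. TATAAA, found in 13.6%, stood at 30 bases in Cxcl3 and at 30 and 8 bases in Ppbp, whose promoter held neither form of the longer motif. The Pf4 window held none of the 3. A match is a description of letters, and no binding was measured.

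The last 500 bases of the transcripts were also read, because ATTTA is the core of AU-rich elements that shorten the life of mRNA. Cxcl1, Cxcl2 and Cxcl3 each had 5 copies of ATTTA there, a number reached by 0.995% of 53477 protein-coding transcripts. Cxcl5 had 3 copies, reached by 7.34%, and Ppbp and Pf4 each had 1, reached by 44.5%. None of the 451 words of 50 bases in the same window of any member occurred, letter for letter, in an annotated transcript of another gene. Copies that differ by single letters or lack an annotation would not be found this way.

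Treatment with amisulpride was followed by unequal values along the cluster. Cxcl3 fell, to 16.9% of its untreated mean. Cxcl2 and Ppbp were lower and Pf4 was higher in every treated library than in any untreated library, and these 3 passed the study thresholds (a log2 fold change of 1 or more in size, and a p under 0.05 before adjustment) but not the adjusted test, which they passed in a fit with the replicate number as a block. Cxcl5 and Cxcl1, the most abundant members, overlapped between the groups. In limma, with p-values adjusted over 12614 genes, 1 of the 6 members had an adjusted p under 0.05, where 0.285% of all genes did. At the study thresholds 4 of 6 members passed, against 5.7% of all genes. Of these, 3 were lower and 1 was higher, where 3.01% and 2.69% of all genes were. Groups did not overlap for the same 4 members, against 16.5% of all genes (8.66% with treated values below and 7.8% with treated values above). All 6 passed the filter on low values. Pf4 did so through its treated libraries and 1 untreated library, and Cxcl2 through its untreated libraries and 1 treated library.

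Libraries held roughly 2.52 to 4.71 M reads, with the depths of untreated replicates 1 and 2 uncertain. Across libraries, 3 reads were worth 2.5 to 5.37 normalised counts. Amisulpride replicate 3, the shallowest, stood apart on the leading principal component (73.9, against -38.2 to 10.4 in the other 5), so each member's value without it is given below. Fibroblast markers, among them Col1a1 and Pdgfra, were abundant, with summed values over 10 genes of 44588 to 59166 in untreated and 51317 to 90819 in treated libraries, and none of the 10 passed the study thresholds. In cultures measured in bulk, fewer cells of a type and less RNA per cell cannot be told apart.

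**Figure D1:**
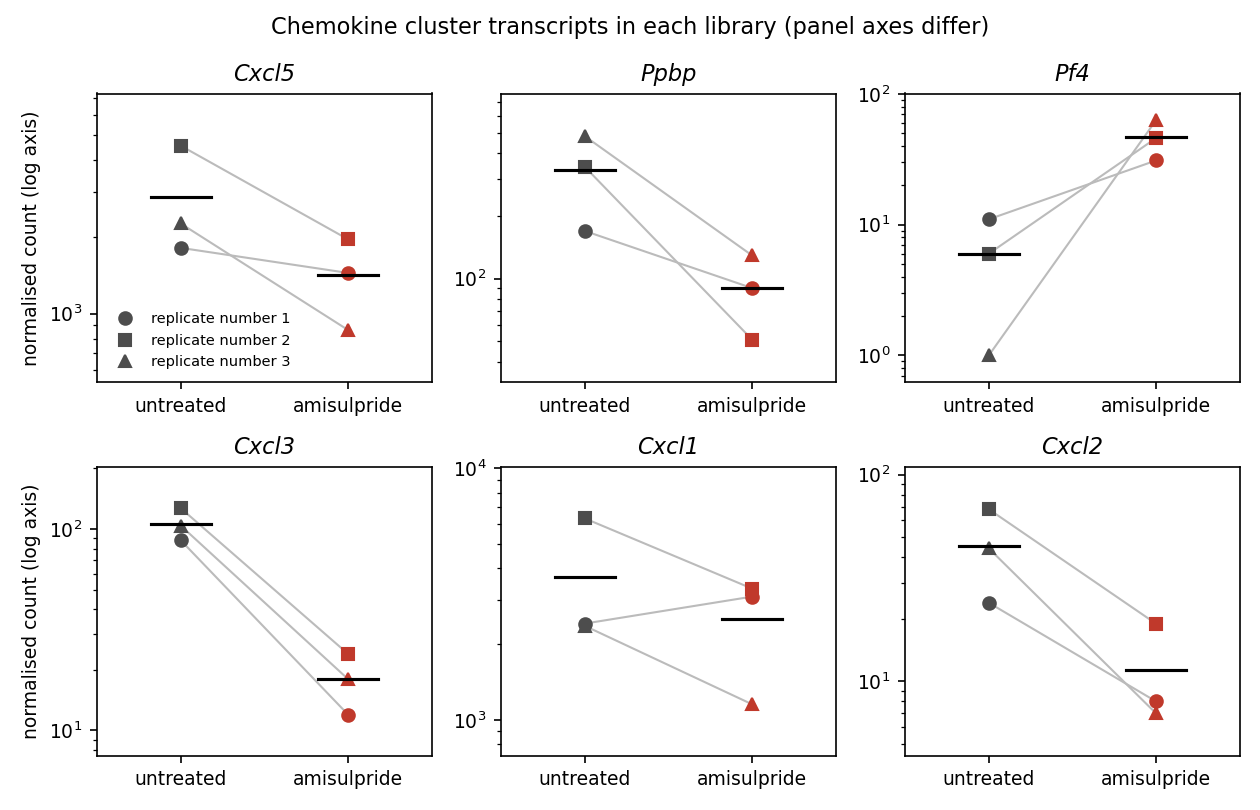
Normalised counts (log axis, scale differing by panel) of the 6 cluster genes in 3 untreated and 3 amisulpride libraries, with the group mean as a black bar and grey lines joining libraries of the same replicate number. The groups are apart for Ppbp, Pf4, Cxcl3 and Cxcl2 and overlap for Cxcl5 and Cxcl1; Pf4 is the member whose treated values lie above.

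Cxcl3 (ENSMUSG00000029379, chr5:90786103-90789600, plus strand, 4 exons) encodes an ELR chemokine that attracts neutrophils through CXCR2. Its values were 88, 127 and 104 normalised counts in untreated replicates 1 to 3, and 12, 24 and 18 in the treated ones. The groups were far apart, with the lowest untreated value well above the highest treated one. The mean went from 106 ± 19.6 to 18 ± 6 (SD, n = 3), and the log2 fold change was -2.53 ± 0.35 (SE; adjusted p = 0.0138 in limma), the rank of this gene by p-value being 12 of all genes tested. Within replicate numbers the log2 differences were -2.78, -2.36 and -2.47, the narrowest set of the 6 members. Without amisulpride replicate 3 the change was -2.56 (adjusted p = 0.00647 in limma). The call was lost when any untreated library was left out, with adjusted p of 0.115, 0.125 and 0.156 in limma without replicates 1, 2 and 3, while the log2 fold change stayed between -2.76 and -2.28 over all alternatives.

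Cxcl2 (ENSMUSG00000058427, chr5:90903871-90905938, plus strand, 4 exons) encodes macrophage inflammatory protein 2, another CXCR2 ligand. It had 24, 68 and 44 normalised counts in untreated libraries, and 8, 19 and 7 in treated libraries. Each treated value was below each untreated one, although the lowest untreated library was close to the highest treated one. The mean went from 45.3 ± 22 to 11.3 ± 6.66 (SD, n = 3), a log2 difference of -1.92 ± 0.51 (SE; adjusted p = 0.167 in limma). The adjusted p was 0.0257 in limma with the replicate number as a block. In that fit 4 of 6 members passed, against 2.08% of all genes, and 3 were lower and 1 higher, against 1.05% and 1.03%. Differences within numbers were -1.47, -1.79 and -2.49. Without amisulpride replicate 3 the difference was -1.67 (adjusted p = 0.173 in limma), and without the other libraries in turn it lay between -2.33 and -1.57, with an adjusted p of 0.179 to 0.546 in limma. The treated values amounted to few reads, since 3 reads were worth 2.69, 4.01 and 5.37 normalised counts in these libraries.

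Cxcl1 (ENSMUSG00000029380, chr5:90891241-90893115, plus strand, 4 exons) encodes the chemokine KC, a CXCR2 ligand that fibroblasts secrete. Its values were 2414, 6319 and 2365 normalised counts in the untreated libraries and 3089, 3325 and 1154 in the treated ones. The groups overlapped, and untreated replicate 2 and amisulpride replicate 3 lay apart from the remaining 4 libraries. The means were 3699 ± 2269 and 2523 ± 1191 (SD, n = 3), a log2 difference of -0.54 with a 95% interval of -1.56 to 0.48 (adjusted p = 0.725 in limma). This interval includes 0 as well as a halving. Within replicate number 1 the treated value was the higher (0.36), and within numbers 2 and 3 it was the lower (-0.93 and -1.03). The difference depended on single libraries, being -0.07 without untreated replicate 2 and -0.04 without amisulpride replicate 3.

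Cxcl5 (ENSMUSG00000029371, chr5:90759360-90761624, plus strand, 4 exons) encodes the ELR chemokine LIX. It stood at 1810, 4542 and 2254 normalised counts in untreated libraries and 1444, 1955 and 864 in treated libraries. The groups overlapped through amisulpride replicate 2, which exceeded untreated replicate 1, yet the treated library was the lower within each number (-0.33, -1.22 and -1.38). The untreated mean of 2869 ± 1466 was 2.02 times the treated mean of 1421 ± 546 (SD, n = 3). The mean log2 difference was -0.97 ± 0.39 (SE, adjusted p = 0.372 in limma), just short of 1 in size on this scale. This was -0.66 without amisulpride replicate 3 and -0.59 without untreated replicate 2. With the replicate block the adjusted p was 0.0817 in limma.

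Ppbp (ENSMUSG00000029372, chr5:90768518-90770063, plus strand, 3 exons) had 169, 343 and 481 normalised counts in untreated libraries, and 90, 51 and 129 in treated libraries. All treated values were below all untreated ones. The means were 331 ± 156 and 90 ± 39 (SD, n = 3), a log2 difference of -1.84 ± 0.42 (SE; adjusted p = 0.0982 in limma). The adjusted p was 0.00537 in limma with the replicate block and 0.0255 without amisulpride replicate 3, where the difference was -2.15. Leaving out any of the other 5 libraries gave an adjusted p of 0.139 to 0.451 in limma, and differences of -1.48 without amisulpride replicate 2 and -1.51 without untreated replicate 3 were the smallest. The size varied more between replicate numbers than for Cxcl3, at -0.90, -2.73 and -1.89.

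Pf4 (ENSMUSG00000029373, chr5:90772435-90773383, plus strand, 3 exons), which starts 2371 bases after the end of Ppbp, differed in the opposite direction. It had 11, 6 and 1 normalised counts in untreated libraries and 31, 46 and 63 in treated libraries. All treated values were above all untreated ones, and the mean was 7.78 times as high. The means were 6 ± 5 and 46.7 ± 16 (SD, n = 3), a log2 difference of 3.05 with a 95% interval of 1.64 to 4.47 (adjusted p = 0.0764 in limma). The adjusted p was 0.0111 in limma with the replicate block. Differences within numbers were 1.42, 2.75 and 5, and the last of these rests on an untreated value of 1, which is under the 2.5 that 3 reads are worth in that library. Leaving out untreated replicate 3, the library with a value of 1, reduced the log2 difference to 2.32 (adjusted p = 0.232 in limma). It was 2.81 without amisulpride replicate 3 (adjusted p = 0.11 in limma) and at most 3.61, without untreated replicate 1.

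Because Ppbp and Pf4 are best known from platelets, markers of platelets and megakaryocytes were read beside them. Of 12, 7 were at 0 in all libraries, including Gp9, Gp1ba and Clec1b. Their summed value was 30 to 49 normalised counts in untreated and 26 to 40 in treated libraries. Itga2b was the largest part of it, at 14, 38 and 18 and then 22, 19 and 21. Gp1bb had 12, 8 and 12 and then 11, 0 and 11. The summed list was smaller than Ppbp alone in every library, and its sums overlapped between the groups where the values of Pf4 did not. Whether platelet RNA contributed to Ppbp or Pf4 was not tested. Of 15 macrophage markers, 13 were tested, 7 of them lower and 6 higher. Csf1r (-1.01) and Cd14 (-1.74) were past the study thresholds, as were 5.7% of all genes. Their summed values were 2462 to 4287 and 2411 to 4327, mostly Lyz2. Cd163 was at 0 throughout, and Ptprc, which encodes CD45, had 38, 12 and 18 and then 23, 5 and 5. C1qc, a complement gene of macrophages, had 95, 34 and 44 and then 127, 67 and 125 normalised counts, and Adgre1 had 39, 25 and 14 and then 59, 43 and 32. C1qa, another complement gene of the list, had 159, 38 and 68 and then 116, 74 and 54, with a lower treated mean. Whether macrophage RNA had a part in the Pf4 result was not tested. Of 10 neutrophil markers, S100a9, Ly6g, Mpo and Ngp were at 0, and the summed values of 1156 to 1647 and 963 to 1679 were mostly Elane. Camp, the cathelicidin of neutrophil granules, had 46, 51 and 31 and then 19, 27 and 5 and was past the study thresholds (-1.51, adjusted p = 0.315 in limma). Mast cell markers summed to at most 1, and endothelial markers to 1 to 15.

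**Figure D2:**
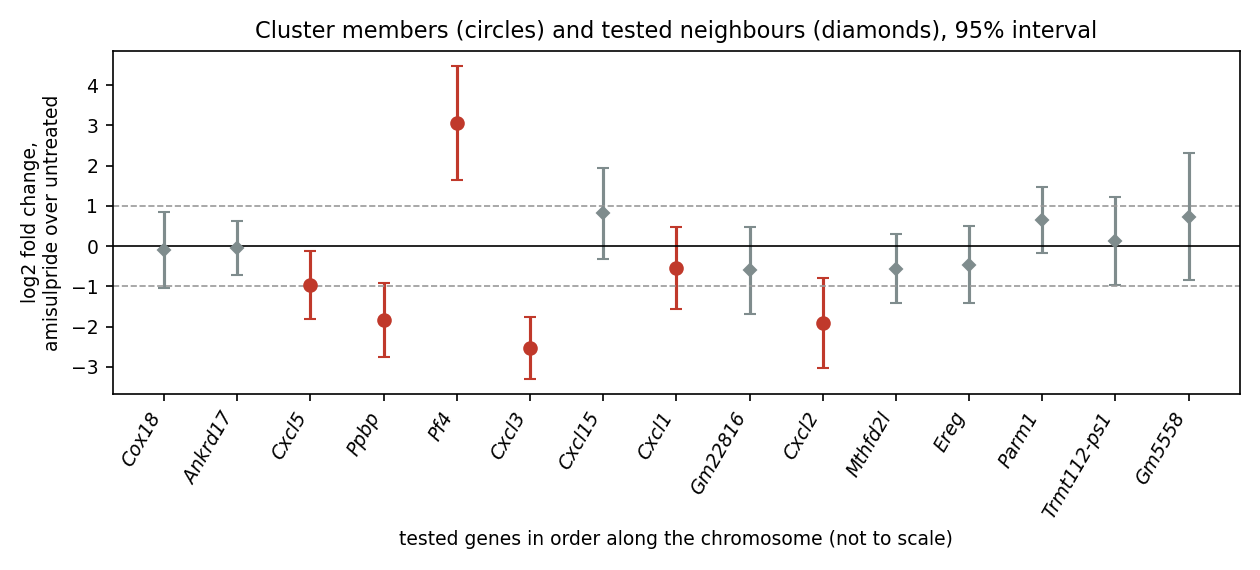
Log2 fold change (amisulpride over untreated) with its 95% interval in limma for the 6 cluster genes (red circles) and the 9 tested neighbours (grey diamonds), in chromosome order and not to scale, with dashed lines at 1 and -1. Cxcl3 (-2.53) and Pf4 (3.05) mark the ends of the range, and the neighbours lie between -0.60 and 0.81.

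Fold changes varied in sign and in size along the chromosome. Pf4, higher in treated SFs, lies between Ppbp and Cxcl3, both lower, and Cxcl1, which overlapped between the groups, lies between Cxcl3 and Cxcl2. Other genes within 1 Mb of the outermost members were described in the same way. Of 38, 15 were at 0 in every library and 9 were tested, 5 with a lower and 4 with a higher mean, and none passed the adjusted test or the study thresholds. Their median log2 fold change was -0.05, beside 0.00155 for all genes tested. Cxcl15, which encodes another ELR chemokine and lies between Cxcl3 and Cxcl1, had 6, 7 and 13 normalised counts and then 15, 13 and 18 (0.81, adjusted p = 0.608 in limma). Ereg, an epidermal growth factor ligand, had -0.46. The largest values among neighbours were those of Gm22816, an rRNA gene of 117 bases annotated 264 bases after the end of Cxcl1 on the same strand. It had 2061, 5278 and 2032 in untreated and 2654, 2843 and 834 in treated libraries, which was 83.5% to 85.9% of the Cxcl1 value in 5 libraries and 72.3% in amisulpride replicate 3. Whether reads of a longer Cxcl1 transcript were counted there was not tested.

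Whether members responded by different amounts was examined in the ratio of each pair within a library, which removes the library's scale. For 9 of the 15 pairs the log2 ratios did not overlap between the groups. The share among pairs of other genes was not computed, and pairs that hold the same gene are not independent. An exact two-sided permutation test of 3 against 3 libraries cannot go below p = 0.1, and all 9 pairs had that value (0.167 after adjustment over the 15 pairs). The Cxcl3 to Cxcl1 log2 ratio was -4.96 ± 0.59 in untreated and -6.96 ± 0.99 in treated SFs (SD, n = 3), with no overlap. The Cxcl1 to Cxcl2 ratio was 1.38 higher and the Cxcl5 to Cxcl3 ratio 1.56 higher after treatment. All pairs of Pf4 with another member were apart, from 3.59 against Cxcl1 to 5.59 against Cxcl3. The Cxcl5 to Cxcl1 ratio differed by -0.44 (p = 0.2, exact permutation test), and the ranges overlapped. The Ppbp to Cxcl2 ratio differed by 0.08, with treated libraries ranging from 1.38 to 4.02, so these 2 genes could not be told apart in their response, nor shown to respond alike.

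**Figure D3:**
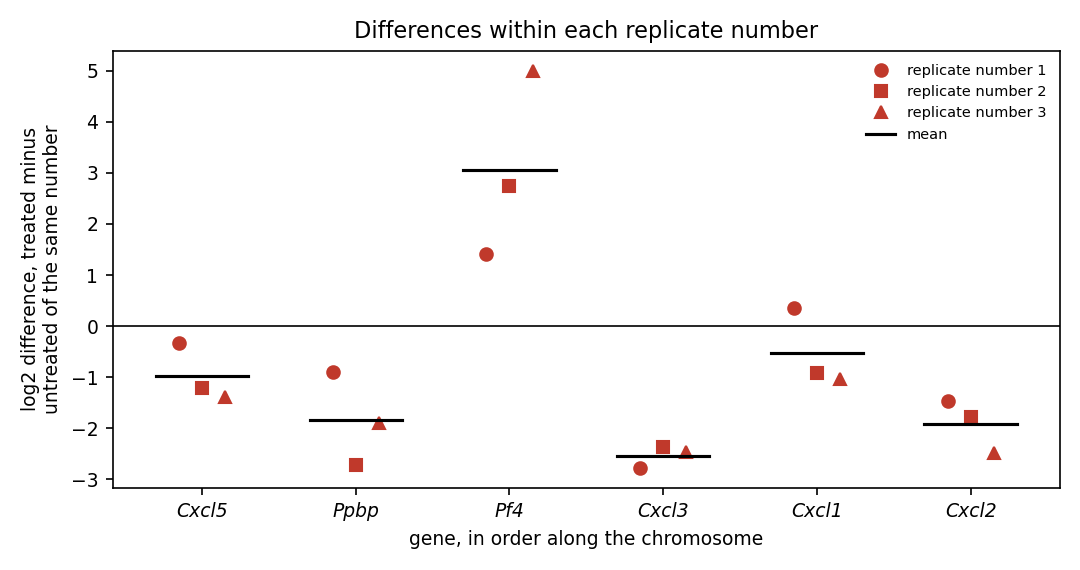
Log2 difference (log2 of normalised count + 1, treated minus untreated) within replicate numbers 1, 2 and 3 for each cluster gene in chromosome order, with the mean as a black bar. Cxcl3 ranges from -2.78 to -2.36, Pf4 from 1.42 to 5, and Cxcl1 spans 0.

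Reads of 3′ libraries do not spread over the length of a transcript, so normalised counts of the members were also set beside each other. Cxcl1 and Cxcl5 made up 88% to 97.4% of the summed value of the 6 genes in every library. In untreated SFs the order by mean was Cxcl1, Cxcl5, Ppbp, Cxcl3, Cxcl2 and Pf4, in which the ranges overlapped between Cxcl1 and Cxcl5 and between no other neighbours. In treated SFs Pf4 moved above Cxcl3 and Cxcl2, its range overlapping that of Ppbp, and the ranges of Cxcl3 and Cxcl2 overlapped. The summed values were 4516, 11405 and 5249 in untreated and 4674, 5420 and 2235 in treated libraries, and they overlapped. The Pf4 share of the sum was 0.0191% to 0.244% in untreated and 0.663% to 2.82% in treated libraries. Between untreated libraries the highest value was 1.44 times the lowest for Cxcl3, 2.51 to 2.85 times for Cxcl5, Cxcl1, Cxcl2 and Ppbp, and 11 times for Pf4.

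Likeness of pattern was measured as the root mean square difference between log2 values, each gene centred on its own mean over the 6 libraries. By this measure the member nearest to Cxcl1 was Cxcl5 (0.32) and the member nearest to Cxcl2 was Cxcl3 (0.50). Ppbp was nearest to Cxcl3 (0.77), and Pf4 was far from all (2.10 to Cxcl1, the nearest). Many other genes were closer than the nearest member, 22 for Cxcl1, 25 for Cxcl5, 12 for Cxcl3, 19 for Cxcl2, 318 for Ppbp and 9926 for Pf4. Among other protein-coding genes, those most like Cxcl3 were Hist1h4h (0.24), Spp1 (0.39) and Kif1a (0.39). Spp1, encoding osteopontin, had 3349, 4630 and 4912 normalised counts and then 791, 862 and 1339, and it fell (adjusted p = 0.013 in limma). Npas2 (0.32), Hist1h4h (0.36) and Ppp1r3f (0.41) were most like Cxcl2. Vash2 (0.36) and Iglon5 (0.40) were among those most like Ppbp. For Pf4 the list was Perp (0.47), Scara5 (0.61) and Gm12216 (0.64). Scara5, a ferritin receptor, had 41, 22 and 16 and then 114, 146 and 131 normalised counts, and it rose (adjusted p = 0.0233 in limma). Pacs1 (0.07), Dnajc12 (0.21) and Miga1 (0.21) were most like Cxcl1, and Tmem177 (0.19) and Dnajb3 (0.22) were among those most like Cxcl5. Several of these genes had low values. Miga1 had 7, 21 and 9 and then 10, 11 and 2, and Tmem177 had 13, 27 and 13 and then 9, 9 and 5. Perp had 9, 7 and 0 and then 23, 25 and 27. These likenesses over 6 libraries are descriptions with no test.

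**Figure D4:**
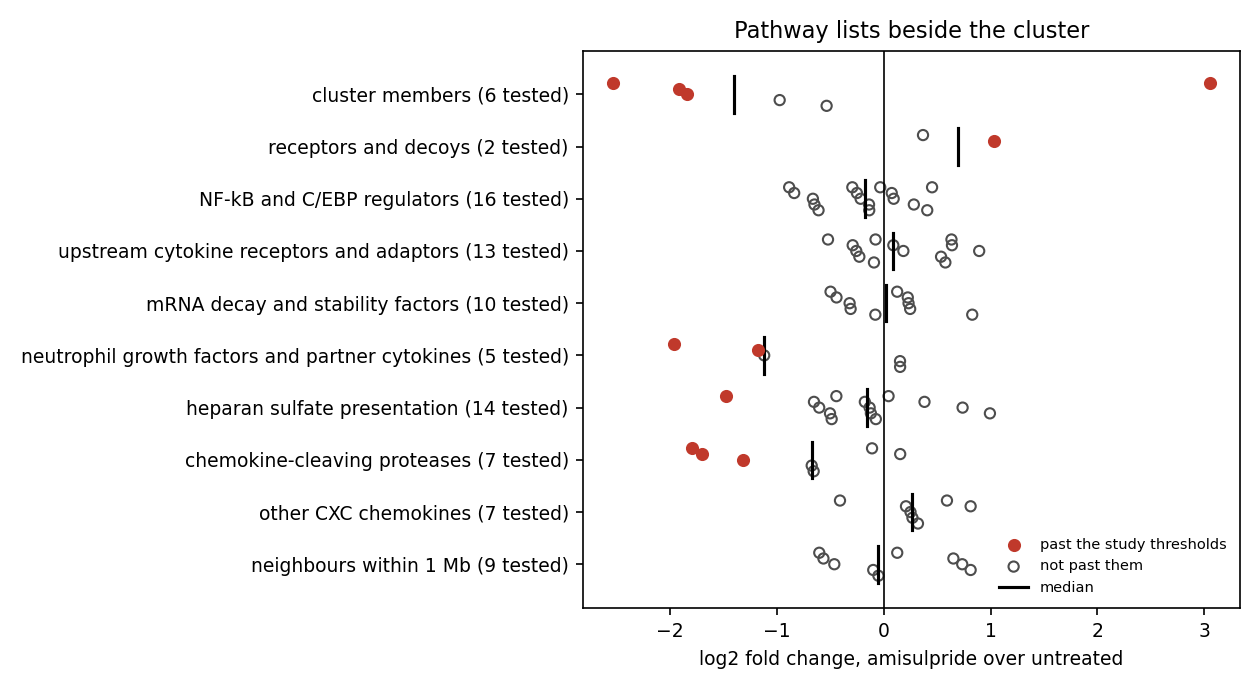
Log2 fold change (amisulpride over untreated) of every tested gene in the cluster, in 8 lists of related genes and among neighbours within 1 Mb, with filled points past the study thresholds, open points not past them and a black bar at the median. Of the lists, proteases (-0.67) and growth factors with partner cytokines (-1.12) have the lowest medians.

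Genes that act with the cluster were read from 8 lists holding 93 distinct genes, of which 74 were tested. None had an adjusted p under 0.05 in limma, 6 were lower and 1 higher past the study thresholds (9.46% of the 74, against 5.7% of all genes), and 4 passed with the replicate block, against 2.08% of all genes. Of 6 receptors and decoys, 2 were tested, both with a higher mean. Ackr3, an atypical receptor that binds Cxcl12, had 185, 286 and 114 normalised counts and then 452, 360 and 319 (1.03, adjusted p = 0.252 in limma). Cxcr2, the receptor of the ELR chemokines, had 45, 50 and 41 and then 63, 37 and 86, and the groups overlapped. Cxcr1, Cxcr3 and Ackr2 were at 0 in every library.

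Upstream of the cluster, 11 of 16 NF-kB and C/EBP regulators had a lower and 5 a higher mean in treated SFs, with a median of -0.18 and none past the study thresholds. Nfkbia, an inhibitor that NF-kB itself induces, had 2162, 2025 and 1566 normalised counts and then 2096, 1401 and 655, a log2 difference of -0.61. Cebpd, a transcription factor of inflammatory genes, had 637, 797 and 468 and then 845, 806 and 895, with all treated values above (0.45, adjusted p = 0.564 in limma). The groups were apart for 3 further genes of the list, all with treated values below, namely Nfkbie (-0.89), Bcl3 (-0.84) and Cebpb (-0.65). Their adjusted p was 0.312, 0.355 and 0.382 in limma. With Cebpd these were 4 of 16 genes, against 16.5% of all genes, and the 3 were named after their values were seen. The 13 upstream cytokine receptors and adaptors were split into 6 lower and 7 higher (median 0.09), none past the thresholds. Tnfrsf1a, the TNF receptor of fibroblasts, had 542 to 850 and then 624 to 723 normalised counts, and Il17ra had 201 to 545 and then 251 to 300. The 10 mRNA decay and stability factors were also split evenly (median 0.02). Of these, Zfp36l2, which binds AU-rich elements, had 757, 1139 and 823 and then 592, 671 and 633 (-0.50, adjusted p = 0.498 in limma), and Zfp36l1 overlapped between the groups (0.13).

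Of 13 neutrophil growth factors and partner cytokines 5 were tested, 3 lower and 2 higher. Past the study thresholds were 2 of the 5, against 5.7% of all genes. Il11, an IL-6 family cytokine, had 27, 25 and 38 normalised counts and then 6, 3 and 16 (-1.97, adjusted p = 0.208 in limma). Mouse Tnf had 27, 16 and 16 and then 10, 7 and 7 (-1.17, adjusted p = 0.405 in limma). All treated values lay below all untreated ones for both genes. Csf1, the macrophage growth factor, had 2968 to 3861 and then 3370 to 3997 normalised counts, and Lif overlapped between the groups. Csf2, Il1b, Il17a, Il17f and Il23a were at 0 in every library, and Csf3, the granulocyte growth factor, was at 2, 0 and 0 and then at 0 throughout.

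Proteases that cleave chemokines held 3 genes past the study thresholds among the 7 tested of 12, against 5.7% of all genes. All 3 were lower, as were 3.01% of all genes. Mmp3, or stromelysin 1, had 4166, 5120 and 2530 normalised counts and then 666, 1118 and 1745 (-1.79, adjusted p = 0.0764 in limma, 0.0091 with the replicate block). The gelatinase gene Mmp9 had 2658, 992 and 2581 and then 638, 230 and 1337 (-1.70, adjusted p = 0.265 in limma, 0.00371 with the block). The collagenase gene Mmp13 had 696, 1462 and 922 and then 223, 779 and 349 (-1.31, adjusted p = 0.254 in limma, 0.0105 with the block). These last 2 genes overlapped between the groups and were lower within each replicate number. Mmp2 (0.15) and Elane (-0.11) had small differences. Among 14 genes of heparan sulfate presentation, the matrix and surface sugars on which chemokines are held, 10 had a lower mean and 4 a higher one (median -0.15). Srgn, encoding the proteoglycan serglycin, had 38, 61 and 11 and then 7, 20 and 7 normalised counts (-1.48, adjusted p = 0.431 in limma). Gpc1 (-0.65) and Sdc2 (0.38) were the most abundant members. Gpc4 had 316, 405 and 485 and then 758, 810 and 802 (0.99, adjusted p = 0.128 in limma, 0.0489 with the block).

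Other CXC chemokines, most of them encoded away from the cluster, mostly had higher means in treated SFs. Of 9, 7 were tested, 6 with a higher mean and 1 with a lower mean (median 0.27), and none was past the study thresholds. Cxcl12, which attracts cells through CXCR4, had 5805, 10291 and 4294 normalised counts and then 11669, 12254 and 6143 (0.59, adjusted p = 0.625 in limma). Cxcl14 had 4583, 4852 and 2547 and then 6224, 5622 and 3151 (0.32). The groups overlapped for both.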

How the data were processed

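The study's 3′ libraries (3 untreated, 3 amisulpride; RNA integrity number above 7) were sequenced on an Ion Proton. The authors mapped reads to mm10 with TopHat2 and Bowtie2, counted them with GenomicRanges, normalised the counts and tested them with DESeq, through metaseqr; versions, the normalisation method and strand setting are not given in the sources used here. The deposited values are a score, taken here to be read counts scaled by the authors with 1 factor for each library and then rounded. From low genes, the worth of 1 read was estimated as 0.834 to 1.79 normalised counts; depths and floors derived from it cover counting error only. Not used were 12 other deposited columns of values per library (the log2 of the score, and a signal that the authors made by dividing the score by a length per gene), the GC fraction that the authors deposited per gene, and the deposited p-values and log2 fold changes of the authors' own comparison.

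Groups were compared with limma 3.58.1 (R 4.3.3; trend, two-sided) on log2(normalised count + 1), a scale that understates the change of low genes. Genes with a value under 10 in more than 3 of the 6 libraries were left out. P-values were adjusted by Benjamini-Hochberg over all 12614 genes tested. The study's own thresholds served as a second rule. The replicates are called biological, with no statement on separate animals, so p-values measure the spread between these libraries, which may be technical.

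Same-numbered libraries deviated together from their group means (Pearson r across genes 0.229, 0.24 and 0.201, against -0.149 to -0.0777 for other pairs). Centring on group means forces other pairs below 0 on average when same-numbered pairs are above it, so the contrast is not separate evidence. Because of the same-numbered values, fits with the replicate number as a block were also made. Members and gene lists were chosen with earlier results of these data known. Named from lists were genes past either rule, then up to 2 of the highest mean; Gpc4, Nfkbie, Bcl3, Cebpb and the single marker genes were chosen after their values were seen. A few genes that the naming rule or marker lists would include are not reported here. Scripts were checked on simulated data. Sequences came from RefSeq and GENCODE tables.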

Additional observations from a re-analysis of the deposited data

How the results depend on the processing

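Fold changes of the 6 genes kept their direction in all 14 alternatives. Cxcl2, Cxcl3, Ppbp and Pf4 were past the study thresholds in each, Cxcl5 in 5 and Cxcl1 in 0. Genes with an adjusted p under 0.05, 36 in the main analysis, numbered 57 with a pseudocount of 5, 57 with no filter, 66 with quantile normalisation, 195 with weights per library, 263 with the replicate block and 0 to 120 when 1 library was left out (0 without untreated replicates 2 or 3, 1 without untreated replicate 1, 17 and 6 without amisulpride replicates 1 and 2, 120 without amisulpride replicate 3). Members among them, 1 in the main analysis, numbered 2 with a pseudocount of 5, 3 with weights, 4 with the replicate block and 0 to 2 with 1 library left out. List genes past the study thresholds numbered 4 to 7 with 1 library left out, against 7 (4 without untreated replicate 1). The replicate block ended no call. The Ppbp to Cxcl2 ratio (0.08) reversed to -0.19 with a pseudocount of 5 and ranged from -0.48 to 0.85 with 1 library left out, reversing without untreated replicate 2 (-0.18), amisulpride replicate 1 (-0.13) and amisulpride replicate 3 (-0.48); the cause was not tested. Depth limits Cxcl2 in treated and Pf4 in untreated libraries, where values come close to 3 reads. Treated values of Cxcl3 (12, 24 and 18) were also low, though further above 3 reads than those of Cxcl2. With 3 libraries a group, a log2 difference such as that of Cxcl5 or Cxcl1 is known only to within its interval.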
